A study of Mus musculus with 3 samples.

Results

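Retained-intron transcripts are annotated RNA models that keep sequence which other transcripts of the same gene remove by splicing. All 21848 such models of the GENCODE M21 annotation were considered. Members were chosen by this biotype and selected on 1 measured value, the TPM of their gene: the 5444 models whose gene reached a summed level of at least 5 TPM (a length-scaled share of a library) in all 3 libraries by both deposited transcript tables were kept as members. They came from 2032 genes, 2023 of them protein-coding, and made up 24.92% of the annotated models and a small part of the 141767 transcripts in both tables. The other 16404 models belong to genes under that minimum and are no members. They enter only where values around the minimum, or at a lower one, are given. With the first table alone 10063 models would have passed.

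The libraries hold total RNA, depleted of ribosomal RNA, from the cytosolic fraction of bone-marrow-derived macrophages of C57BL/6J mice, which are primary cells cultured from marrow precursors. The cells had received Lipid A, the part of bacterial lipopolysaccharide that activates Toll-like receptor 4, at 100 ng/ml for 12 h, were kept without it for 12 h and received 100 ng/ml again for 30 min. All 3 replicates carry this same treatment and 1 µg of RNA entered each, so there is 1 group and no untreated control here. The labels give all 3 the same donor entry and give neither age nor sex, so the spread between libraries may be technical.

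Introns are normally removed in the nucleus before export. Transcripts that keep an intron are mostly held in the nucleus and degraded there, and those that reach the cytosol often meet a premature stop codon inside the intron and are then degraded by nonsense-mediated decay, which is coupled to translation. Some retained introns are regulated, as in splicing-factor and stress-response genes. The annotated class is broader than that picture: it also holds short fragments that begin or end inside an intron.

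The introns shown are those kept whole by 7 members that held at least 10% of their gene's TPM in every library by both tables. Each lies between the start and stop codon of the coding transcript that splices it out. None of its bases belongs to an exon of a transcript of another class. Other members met these conditions too, Taf10-201 and Psma3-203 among them, and their introns are not shown. Each intron shown is read 5′ to 3′ on the gene's strand from GENCODE M21 transcripts, build GRCm38 (mm10), with the first and last 2 bases in capitals: GT and AG are the splice-site ends. Positions are chr4:3835292-3835483, minus strand, for Rps20-201, chr13:55324445-55324526, plus strand, for Prelid1-202, chr17:34212068-34212229, plus strand, for Tap2-202, chr13:43785251-43785345, plus strand, for Cd83-202, chr14:79587867-79587953, plus strand, for Sugt1-205, chr17:34199381-34199570, plus strand, for Psmb8-205, and chr7:3716891-3717117, minus strand, for Pirb-202.
Rps20-201: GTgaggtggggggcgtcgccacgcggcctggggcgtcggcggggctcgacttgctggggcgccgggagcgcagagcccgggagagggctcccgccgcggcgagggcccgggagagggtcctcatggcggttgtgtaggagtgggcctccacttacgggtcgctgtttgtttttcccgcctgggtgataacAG
Prelid1-202: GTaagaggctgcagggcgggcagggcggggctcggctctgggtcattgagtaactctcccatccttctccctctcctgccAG
Tap2-202: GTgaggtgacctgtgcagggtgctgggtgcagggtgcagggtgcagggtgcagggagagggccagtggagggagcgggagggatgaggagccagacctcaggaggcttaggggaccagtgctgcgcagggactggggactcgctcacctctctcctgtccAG
Cd83-202: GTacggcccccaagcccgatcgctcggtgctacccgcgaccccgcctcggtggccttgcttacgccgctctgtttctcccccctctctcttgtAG
Sugt1-205: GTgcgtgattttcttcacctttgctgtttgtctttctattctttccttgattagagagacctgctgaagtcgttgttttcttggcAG
Psmb8-205: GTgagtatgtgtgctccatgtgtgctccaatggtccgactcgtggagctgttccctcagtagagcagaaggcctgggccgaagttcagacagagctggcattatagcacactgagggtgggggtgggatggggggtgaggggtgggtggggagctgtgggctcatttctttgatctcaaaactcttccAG
Pirb-202: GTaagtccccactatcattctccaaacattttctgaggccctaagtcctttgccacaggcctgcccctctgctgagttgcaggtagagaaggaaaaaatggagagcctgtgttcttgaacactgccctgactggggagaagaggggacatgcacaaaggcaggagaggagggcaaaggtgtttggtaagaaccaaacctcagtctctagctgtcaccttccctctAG

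All 7 begin with GT and end with AG, and they are 192, 82, 162, 95, 87, 190 and 227 bases long in the order shown. Carrying the coding frame into the intron, a stop codon was reached within the first 62 codons in Rps20-201, 3 in Tap2-202, 32 in Cd83-202, 23 in Sugt1-205, 21 in Psmb8-205 and 15 in Pirb-202. Prelid1-202 had no stop in that frame inside its 82 bases, whose length is not a multiple of 3, so the frame after the intron is shifted. Rps20-201 is annotated to begin only 5 bases before its intron and Sugt1-205 58 bases before it, whereas Tap2-202 has 1205 bases before and 1194 after it.

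The libraries held 28759407, 54709008 and 49878183 expected counts in annotated genes for replicates 1, 2 and 3, of which 318614, 530097 and 628233 were assigned to members. The median member had 4.16, 5.61 and 12.3 counts, so a share of a single low member rests on few reads. Macrophage identity was checked with 10 markers, all detected at 1 TPM or more in every library, while markers of T and NK cells, B cells, stroma and erythroid cells summed to under 1 TPM per list. Of 6 neutrophil markers 2 were detected, S100a8 at 3.51, 3.76 and 3.30 TPM and S100a9 at 3.18, 5.88 and 4.78, while Ly6g and Retnlg were listed at 0. In bulk RNA a lower share of cells that make a transcript and a lower amount per cell cannot be told apart.

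Members took a small share of their genes. The median over the 2032 genes of the summed member share was 1.07%, 0.743% and 1.76% of gene TPM in replicates 1, 2 and 3 by the first table, a mean of 1.19% ± 0.516 (SD, n = 3). Pooled over genes, which gives abundant genes more weight, the share was 4.82%, 4.48% and 5.49%, or 4.93% ± 0.515. Replicate 3 was highest and replicate 2 lowest on both measures. In the second table the pooled shares were 5.82%, 5.07% and 6.11%, in the same order. A share of TPM is length-scaled, and members are short, with a median of 783 bases against 1504 for the coding transcripts of the same genes. As a share of reads the pooled value was 2.46% ± 0.325.

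Most members were near 0. In the first table the median member held 0.408% of its gene's TPM and the 90th percentile was 3.21%. Under 1% in every library by both tables were 2484 members, and 169 were at 0 in every library of both tables. Among the latter were Irf9-201, Gas5-216, Ptprc-206 and Rpl37-206, whose genes stood at 24.2, 44.8, 94.4 and 53.0 TPM, so these models were not seen although the genes were. At the gene-level minimum, Cherp-202 (lowest gene value 5.004 TPM), Snu13-203 (5.011), Nus1-202 (5.011) and Vps72-205 (5.012) were just inside, with mean shares of 1.54%, 0.264%, 0.393% and 0.301% in the first table. Txlna-206 (4.994), Vamp4-202 (4.994), Qdpr-210 (4.992) and Wsb1-204 (4.991) were just outside, with 1.13%, 0.558%, 22.1% and 5.28%.

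A minority held a sizeable share. At least 10% of gene TPM in every library by both tables was reached by 178 of the 5444 members (3.27%), in 162 genes. The same threshold was met by 18.9% of all 16431 transcripts of these genes, by 34.6% of their coding transcripts and by 9.53% of the 1280 transcripts annotated as nonsense-mediated-decay targets, which are annotated for an early stop codon. At least 50% was reached by 21 members (0.386%), against 8.35% of all transcripts and 0.781% of the decay targets. Summed over the members of a gene, 196 of the 2032 genes (9.65%) reached 10% and 30 reached 50%. These shares are descriptions, since the members discussed next were picked by them.

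In the 766 genes that carry both classes, members held 4.47%, 4.06% and 5.40% of pooled TPM and decay targets 7.49%, 7.38% and 7.32% in replicates 1, 2 and 3. Members were lower in 3 of 3 libraries, by 3.02, 3.32 and 1.92 percentage points (mean difference -2.75 ± 0.738, p = 0.25 in a two-sided exact sign-flip test, which with 3 libraries can go no lower). Over the 3 libraries the SD was 0.0855 points for the decay targets and 0.689 for the members, a difference in spread that was not tested. The second table gave a mean difference of -3.04 ± 0.871.

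Rps20-201, of a protein of the small ribosomal subunit, held 91.5%, 91.1% and 91.0% of gene TPM in replicates 1, 2 and 3, at a gene level of 173.9 TPM ± 20.3, and 92.0%, 92.5% and 91.1% by the second table. No difference between libraries was called (chi-square test of equal share, adjusted p = 0.922). Here and below, this test compared shares of expected counts in the first table, not the shares of TPM printed beside it. The leading coding transcript of this gene, Rps20-203, is annotated at 3706 bases against 582 for the member and held 8.68%. Mrpl57-202, of the mitochondrial ribosome, held 94.1%, 94.3% and 93.8%. It has no whole intron and begins inside one, with 79 intronic bases of 519. As shares of expected counts in the first table, Rps20-201 held 52.4%, 51.8% and 51.8%, and Mrpl57-202 63.35%, 65.2% and 63.3%.

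Members of 3 genes of the class I antigen pathway are given next, 1 named for its share and the others for the abundance of their gene. Tap2-202, among the 20 of highest share, of the transporter that carries peptides into the endoplasmic reticulum, held 74.9%, 79.7% and 80.3% of gene TPM in replicates 1, 2 and 3 and 72.3%, 76.2% and 76.7% by the second table, at 34.9 TPM for the gene. Replicate 1 was lowest in both tables, and the share was unequal over the libraries (adjusted p = 8.55e-04 by chi-square). Psmb8-205, of a catalytic subunit of the immunoproteasome, held 46.5%, 47.2% and 47.8%, about the same as the coding Psmb8-203 at 50.5% ± 0.436. No difference between its libraries was called (adjusted p = 0.543, chi-square). H2-K1-215, of a class I heavy chain in the most abundant gene with a member at 10%, at 2004 TPM ± 274, held 44.1%, 44.6% and 44.2% by the first table but 37.7%, 36.2% and 30.1% by the second. As a share of expected counts it held 11.9%, 12.6% and 12.7%, which was unequal over the libraries (adjusted p = 0.00435, chi-square). Only 20 of its 457 bases are intronic, and it keeps no whole intron.

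Other immune genes had members with a whole intron. Cd83-202, of a surface protein of activated antigen-presenting cells, held 75.8%, 75.6% and 77.7% of gene TPM and 68.8%, 67.4% and 71.5% by the second table, while the coding Cd83-201 held 23.6%. Pirb, an inhibitory receptor of myeloid cells, had 2 such members: Pirb-202 held 50.6%, 43.5% and 46.1%, and Pirb-203 20.4%, 19.8% and 19.6%. The share of Pirb-202 was unequal over the libraries (adjusted p = 6.36e-05, chi-square). The coding Pirb-201 held 27.3% by the first table and 3.95% by the second, so the split within this gene depends on the table. Cd14-202, of the Toll-like receptor 4 co-receptor, held 11.8%, 10.4% and 11.3% of a gene at 97.0 TPM ± 31.1. No difference in its share was called (adjusted p = 0.441, chi-square), although the gene itself ranged from 73.4 TPM in replicate 3 to 132 TPM in replicate 2.

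Ncl-202 and Prelid1-202 kept introns at high share in housekeeping genes. Ncl encodes nucleolin, a factor of ribosome assembly whose introns carry small nucleolar RNAs, and the span of Ncl-202 includes Snora75 and Snord82. Neither overlaps an exon of Ncl-202, so neither lies in the introns it keeps. Ncl-202 held 80.0%, 81.1% and 83.0% and 86.9%, 87.2% and 87.5% by the second table, highest in replicate 3 in both, and was unequal (adjusted p = 5.90e-07, chi-square). Prelid1-202, of a carrier of phospholipid inside mitochondria, held 83.0%, 83.7% and 82.8%. Sugt1-205, of a chaperone partner of innate immune receptors, held 54.5%, 56.7% and 50.1%. Taf10, of a basal transcription complex, was in TPM held almost whole by 2 members, Taf10-202 at 63.9% ± 7.64 and Taf10-201 at 32.1% ± 7.60, with 4.05% left to its coding transcript. That transcript, Taf10-203, is annotated at 4281 bases against 601 and 678 for the members. As shares of expected counts in the first table, Taf10-202 held 44.2%, 49.6% and 37.8% and Taf10-201 23.5%, 22.4% and 33.4%. Their split differed between libraries: in replicate 3 Taf10-202 stood at 55.3% and Taf10-201 at 40.7%, and both were unequal (adjusted p = 3.66e-10 and 3.17e-13, chi-square).

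The other members of highest share mostly begin or end inside an intron. Trappc4-202, of a vesicle-tethering complex, held 75.04%, 73.7% and 73.6%, and Ufm1-204, of a ubiquitin-like modifier, 71.5%, 64.6% and 69.9%, with 64 and 19 intronic bases. Sri-201, of the calcium-binding protein sorcin, held 61.03%, 64.6% and 68.45% with 11, and was unequal (adjusted p = 0.00548, chi-square). Atp5j-208, of ATP synthase, held 67.7%, 66.3% and 67.9%, and Rab8a-202, of a vesicle-traffic GTPase, 57.6%, 57.3% and 57.8% in the first table and 65.9%, 67.0% and 64.6% in the second. For Rab8a-202 the tables did not overlap, while the 3 libraries of each table lay close together. As shares of expected counts in the first table, Ufm1-204 held only 7.69%, 6.13% and 7.87% and Rab8a-202 9.14%, 9.08% and 9.32%. Trappc4-202 stayed high on that measure, at 72.2%, 70.1% and 68.6%.

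**Figure D1:**
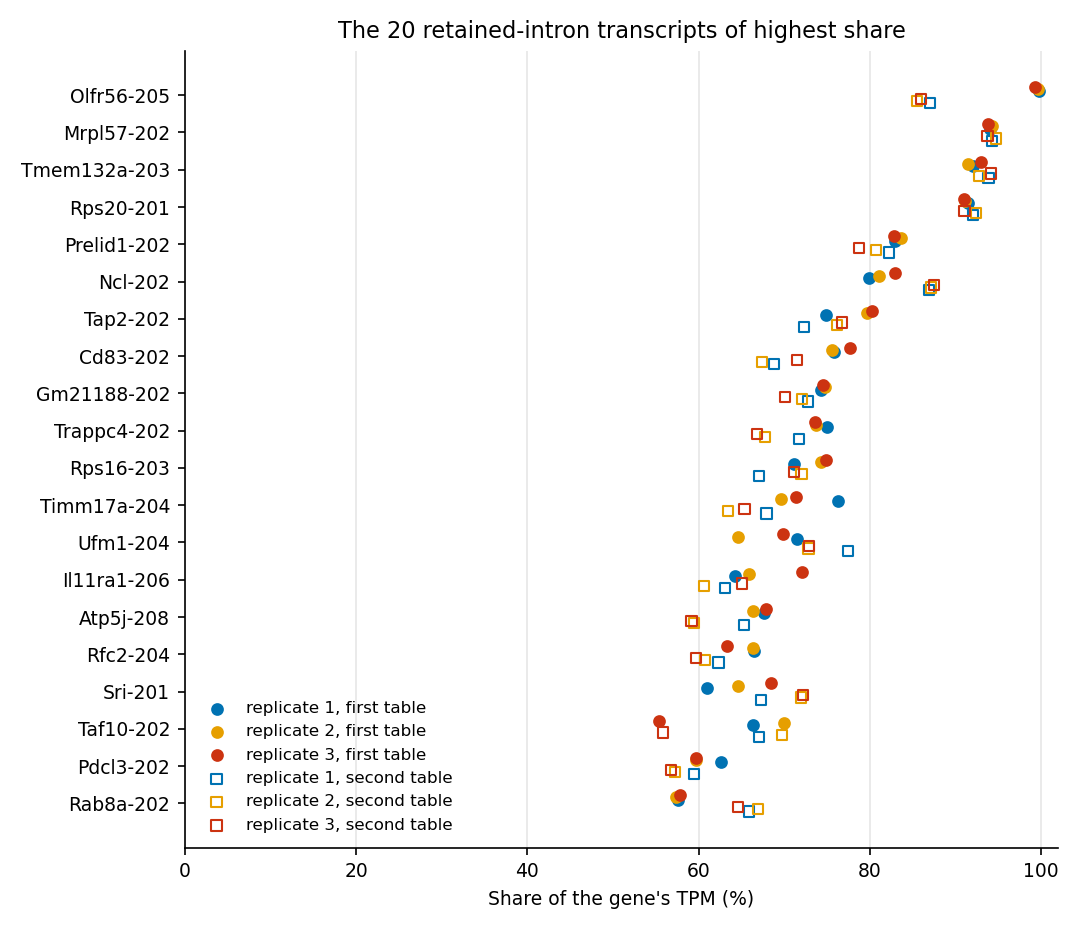
Share of gene TPM (%) of the 20 members of highest share, 1 row each, with filled circles for the first table, open squares for the second and colour for the replicate. Most rows have tight groups near one another, from Olfr56-205 at 99.6% to Rab8a-202 at 57.6% in the first table, while Taf10-202 shows replicate 3 apart in both tables.

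Some high shares lie where genes overlap. The labels and headers do not say whether counting used strand, so reads from overlapping genes cannot be told apart. Tmem132a-203, at 92.1%, 91.5% and 93.0%, is a single exon of 1371 bases opposite Slc15a3, a lysosomal transporter at 193, 172 and 219.7 TPM against 40.1 for Tmem132a. Olfr56-205, at 99.8%, 99.7% and 99.3%, shares exon bases on the same strand with Ifi47, an interferon-induced GTPase at 106.7, 70.6 and 77.8 TPM. Taf10-202 lies opposite Ilk, a kinase-like adhesion protein at 29.8 TPM in its highest library. For Tap2-202, Psmb8-205 and Prelid1-202 the antisense genes stood at 0.14 TPM or less in every library. Of the 178 members at 10%, 26 overlapped an antisense gene and 15 an exon of a same-strand gene, beside 707 and 336 of all 5444 members.

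The members at 10% differed in structure from the rest, and carried little intron. Intronic bases, meaning bases inside the gene but outside every exon of its other transcript classes, made up a median of 88 bases or 11.5% of the members at 10%, against 319.5 bases or 42.3% of the others. Under 10% intronic were 81 of the 178 (45.5%) and 8.53% of the others. A whole intron was kept by 32 (17.98%, against 31.9%). Of those without one, 88 began inside an intron (49.4%, against 23.8%) and 48 ended inside one (26.97%, against 32.6%). The leading coding transcript was a median of 2.92 times as long as the member at 10%, against 2.58 times for the others, and 48 of the 178 (26.97%) ended within 50 bases of a coding transcript's end, against 13.8%. Put the other way, 15.3% of members under 10% intronic reached the 10% share, then 6.18%, 1.43%, 0.547% and 0.118% in the classes of 10 to 25%, 25 to 50%, 50 to 75% and 75% or more. Reads on exonic bases are shared with the other transcripts of the gene and are divided by the authors' model, so for a member with few intronic bases the share rests on few bases of its own.

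Several members of large share, most of them in abundant genes, were of this kind. Aif1-205, of an actin-binding protein used as a macrophage marker, held 47.4%, 51.2% and 54.6% of a gene at 444.7 TPM with 0 intronic bases, and was unequal (adjusted p = 8.12e-10, chi-square). By the second table it held 36.1%, 39.5% and 38.6%, highest in replicate 2. Itm2b-202 held 35.8%, 34.1% and 35.6% of a gene at 990.1 TPM, with 78 intronic bases, and 51.4%, 52.0% and 51.6% by the second table. Vim-203, of the filament protein vimentin, held 37.3%, 34.3% and 43.9% with 52 intronic bases, and its share differed between libraries (adjusted p = 6.43e-49, chi-square), highest in replicate 3. As shares of expected counts in the first table, Aif1-205 held 25.5%, 29.0% and 32.1% and Itm2b-202 20.0%, 19.0% and 20.1%. Vim-203 held only 8.94%, 8.20% and 11.9% on that measure. Timm17a-204, of the mitochondrial import machinery, held 76.3%, 69.6% and 71.4% with 4, in a gene of only 23.3 TPM. Ctsb-202, of the lysosomal protease cathepsin B, held 15.0%, 12.8% and 13.0% in the first table and 37.5%, 39.6% and 36.98% in the second. Samhd1-210, of an enzyme that degrades deoxynucleotides and restricts viruses, held 19.8%, 24.6% and 25.8% with 27 intronic bases. Ms4a6c-202, of a macrophage membrane protein, was richer in intron at 209 bases of 639 and held 24.7%, 26.4% and 26.9%.

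Whole introns were those that at least 1 coding transcript of the gene splices out. Where a gene had no coding transcript, those of its other classes were used. Such introns were kept by 1714 members. Their longest such introns, 1511 after removing repeats, had a median of 291 bases against 1172 for the 29007 introns of coding transcripts of the same genes, and 98.74% ran from GT to AG. Of these 1408 lay between start and stop codon, 76 before the start and 10 after the stop. Of 1407 whose frame could be read, 1274 (90.55%) met a stop codon inside the intron, after a median of 14 codons. Among the 32 members at 10% with a whole intron, the median was 158 bases, 20 were under 200 bases, all ran from GT to AG, and 25 of the 30 with a readable frame met a stop. Such an intron can be exon in another transcript of the gene. Fxyd5-214, among the 32, kept a 92-base intron but had only 7 intronic bases. By intron size, 3.68% of members with a longest whole intron under 100 bases reached 10%, then 2.45%, 1.08%, 1.92% and 0.721% at 100 to 200, 200 to 400, 400 to 800 and 800 or more. Tmed7-202, of a trafficking receptor, was an exception in size: it kept a 4560-base intron, was 83.4% intronic, and held 32.5%, 32.0% and 26.9%.

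**Figure D2:**
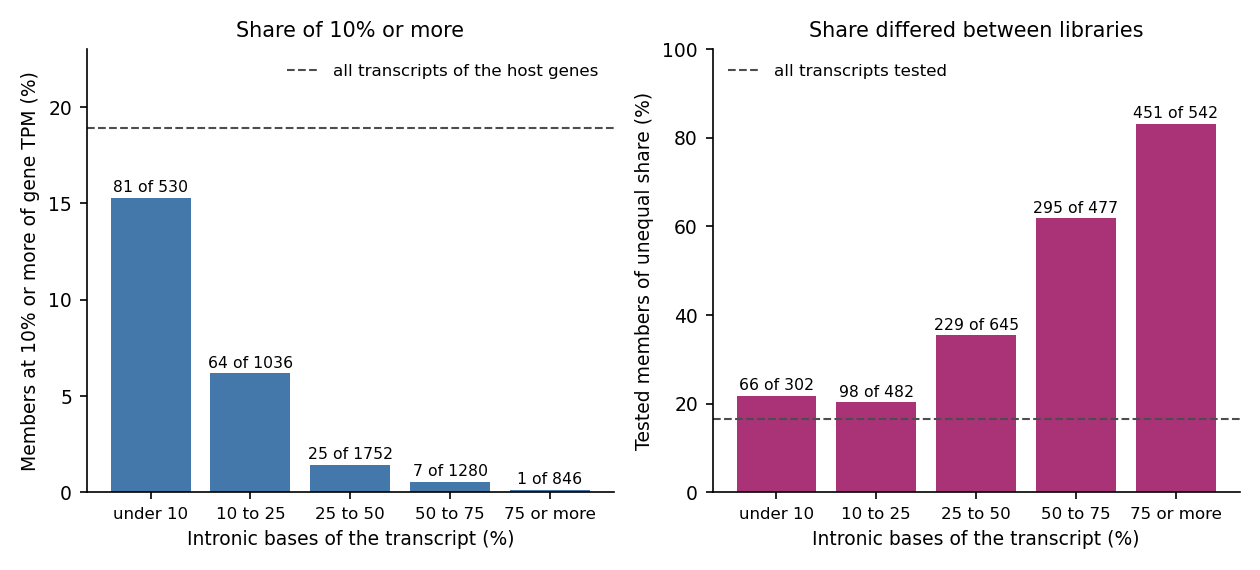
Left, the percent of members (bars, with counts above) that held 10% or more of gene TPM, by the intronic percent of the transcript, with the dashed line at 18.9% for all transcripts of the host genes. Right, the percent of tested members whose share differed between libraries, with the dashed line at 16.5% for all transcripts tested. The left bars fall from 15.3% to 0.118% and the right bars rise from 21.9% to 83.2%.

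Intron-rich members were mostly highest in replicate 3. Of the 846 members at least 75% intronic 830 were above 0 in the first table, and 716 of these (86.3%) were highest in replicate 3, 97 in replicate 1 and 17 in replicate 2. Over all members it was 3336 of 5020 (66.45%), and 43.96% in the class under 10% intronic. A test of equal share of expected counts over the 3 libraries was run for transcripts with a mean count of at least 10 in genes with at least 50. It was a chi-square test on 2 degrees of freedom with Benjamini-Hochberg adjustment that adds the assignment error to counting error. It called 1139 of 2448 members tested (46.5%), against a background of 16.5% of all 29027 transcripts tested and 9.45% of 2096 decay targets. With counting error alone the distance was smaller, at 76.6% of members against 67.5% of all transcripts. Of the 1139, 1049 were highest in replicate 3, 936 were lowest in replicate 2, and 891 had the order 3, 1, 2. Of the 178 members at 10%, 50 were unequal.

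The excess grew with intron content. The percent called was 21.9% and 20.3% in the 2 classes under 25% intronic, 35.5% at 25 to 50%, 61.8% at 50 to 75% and 83.2% at 75% or more. The pooled share of members at 75% or more was 0.121%, 0.0669% and 0.182% in replicates 1, 2 and 3, 1.93-fold higher in replicate 3 than in the mean of the others, and 1.97-fold by the second table. At under 10% intronic that ratio was 1.14, and 1.01 by the second table. The decay targets were flat, at 2.09%, 2.11% and 2.03%. Nuclear noncoding RNA moved the same way, with Malat1 at 303.6, 182.5 and 637.8 TPM and Neat1 at 19.9, 12.7 and 47.7, and the 8 genes of that list together at 353, 215 and 717 TPM. By the second table the list stood at 162, 108 and 196 TPM. Tug1, another member of that list, did not follow, at 21.02, 16.1 and 17.9. The part of nuclear RNA in the rise was not tested. Without replicate 3, 255 of 2019 members tested (12.6%) were called, against 3.66% of all transcripts, so replicates 1 and 2 also differed. Without replicate 2 the count was 468 of 2545 (18.4%, against 7.71%), and without replicate 1 it was 1225 of 2673 (45.8%, against 14.97%).

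**Figure D3:**
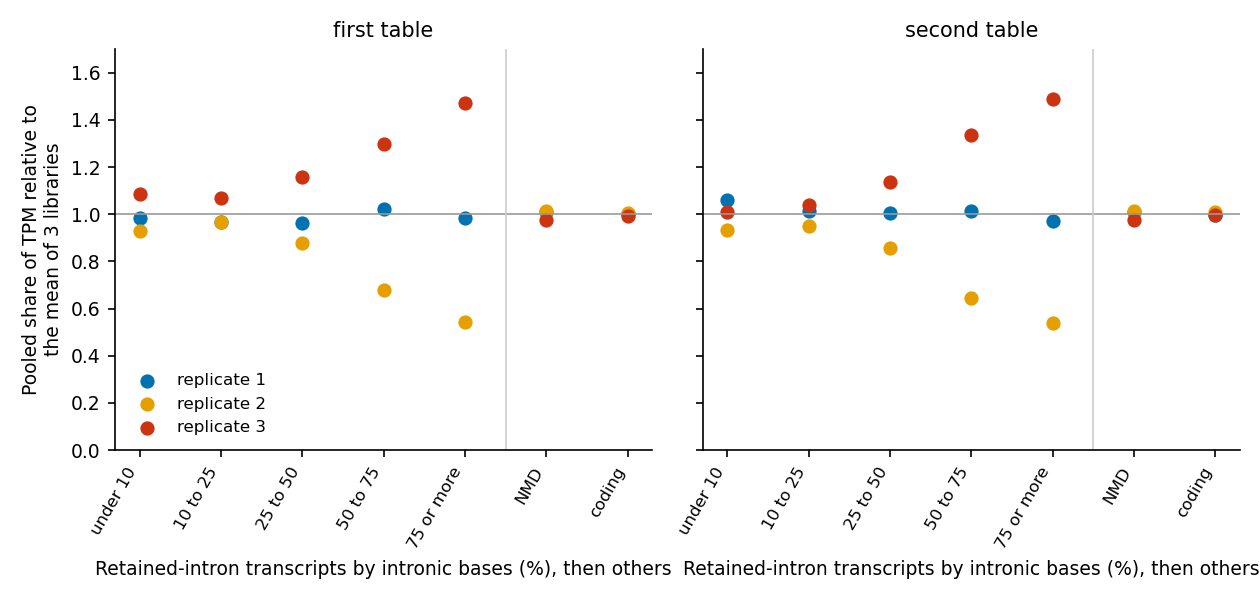
Pooled share of host-gene TPM in each replicate (colour) divided by the mean of 3 libraries, for 5 classes of members by intronic percent, for nonsense-mediated-decay targets (NMD) and for coding transcripts, in the first table (left) and the second (right). The replicates spread apart toward the intron-rich classes, with replicate 3 on top and replicate 2 at the bottom, and lie close together for NMD and coding transcripts.

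The 8 members with the most unequal shares had long introns and low shares. Fabp5-202, of a fatty acid-binding protein, keeps a 2252-base intron and held 0.220%, 0.0998% and 0.359% of a gene at 1257 TPM (adjusted p = 3.34e-104, chi-square). Ms4a7-205, of a membrane protein of macrophages, held 1.06%, 0.633% and 1.88% (adjusted p = 6.80e-93, chi-square). Zeb2-204, of a transcription factor of the macrophage lineage, held 1.94%, 1.03% and 2.81% (adjusted p = 8.66e-91, chi-square). It lies opposite Zeb2os at 12.5, 14.2 and 20.4 TPM. The iron-storage gene Fth1, the most abundant of these at 19397 TPM, had Fth1-208 at 0.0546%, 0.0283% and 0.0659%. Ube2d3-203, of a ubiquitin-conjugating enzyme, keeps the longest intron of any member at 15387 bases and held 0.334%, 0.178% and 0.537%. Ikbke-206, of an interferon-pathway kinase, held 1.91%, 0.922% and 2.97%. It lies opposite Gm28913, at 1.51, 0.61 and 3.32 TPM, and Gm28914, at 0.81, 0.22 and 1.03 TPM, which follow the same order over replicates, and with strand use unknown their part in its share was not tested. Xdh-206, of xanthine dehydrogenase, held 4.70%, 3.21% and 9.12%, and Etnk1-202, of ethanolamine kinase, 1.42%, 0.694% and 3.19%. In all 8 replicate 3 was highest and replicate 2 lowest, in both tables. Rsrp1-204, of a small arginine- and serine-rich protein, was of this pattern at a high share, with 26.1%, 13.1% and 32.5% (adjusted p = 7.08e-47, chi-square).

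**Figure D4:**
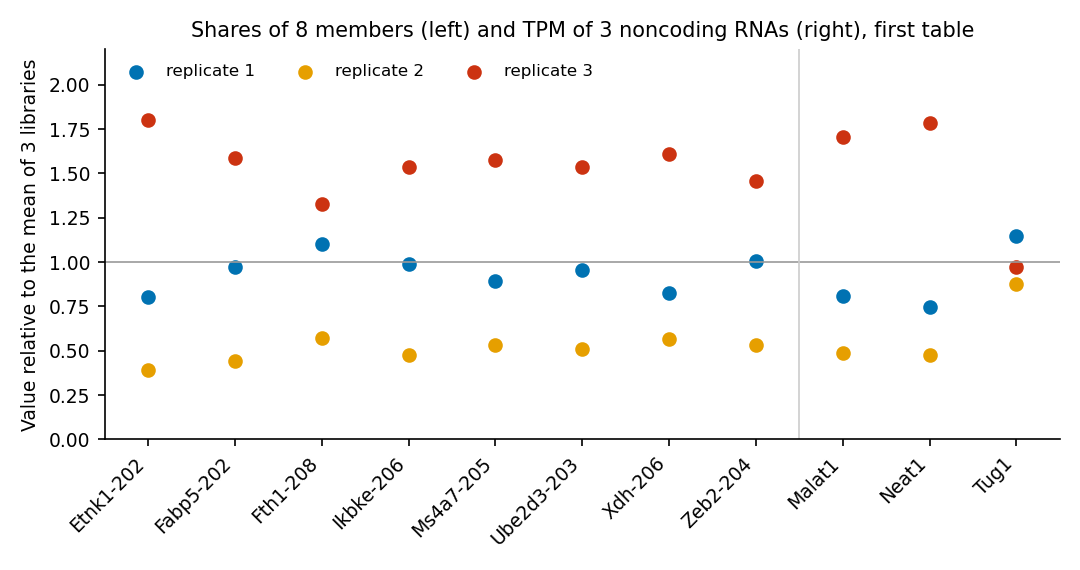
Share of gene TPM of the 8 most unequal members (left of the line) and TPM of 3 noncoding RNAs (right), each divided by its mean over 3 libraries, by replicate, first table. Replicate 3 is highest and replicate 2 lowest in the 8 members and in Malat1 and Neat1, while Tug1 is highest in replicate 1.

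Host genes were also read by function. Of 44 splicing-factor genes 28 passed, with 125 members, of which 1 reached 10% (0.8%, beside 3.27% of all members), Srsf1-203 at 21.4%, 16.3% and 16.9%. The median gene of that list gave 4.77% of its TPM to members, beside 1.25% over all host genes. These are sums over the members of a gene, and the list has more members per gene (125 in 28 genes, beside 5444 in 2032). Of 15 genes with retained or detained introns known from earlier work 7 passed, and 0 of their 35 members reached 10%. Summed over members, the median gene of these gave 5.29%. Srsf5-212, of a splicing regulator, held 4.87%, 2.79% and 5.91%, Srsf7-206, of another, 3.15%, 2.75% and 3.99%, and Dusp1-204, of a phosphatase that limits MAP kinase signalling, 2.52%, 1.75% and 3.89%. Each was highest in replicate 3 and lowest in replicate 2, and Srsf5-212 and Dusp1-204 were unequal by the test (adjusted p = 8.18e-11 and 0.00108, chi-square) while Srsf7-206 was not (0.45).

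Ribosomal protein genes gave little to members as a group. Of 83 genes 61 passed, and the median gene gave 0.241%, yet 6 of their 163 members (3.68%) reached 10%, near the 3.27% of all members. Besides Rps20-201 these were Rps16-203 at 71.1%, 74.3% and 74.9%, Rpl15-206, Rpl13a-213, Rps26-202 and Rps16-202. Translation factors gave 0.744% at the median, with Eif2b2-206 their only member at 10%, and the snoRNA hosts 1.59%, with Ncl-202 the only one. In the innate response list 2 of 36 members reached 10%, Cd14-202 and Sod2-204, of the mitochondrial superoxide dismutase, which held 27.9%, 33.6% and 36.6% (adjusted p = 4.85e-17, chi-square). Of the interferon-stimulated genes 2 of 51 members did, Psmb8-205 and Stat2-206, of an interferon signalling factor, at 15.1%, 16.9% and 16.0%. Among the lysosome and phagocyte genes Ctsb-202 did. The list medians are descriptions and were not tested against other genes.

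The tables agreed for most members and differed widely for some. The mean share differed by under 1 point for 81.8% of members and by over 10 points for 146. Spearman's rho across members was 0.787 between tables and 0.681 to 0.714 between libraries of the first table, which describe agreement across transcripts that are not independent. Eif5b-202, of a translation initiation factor, held 2.97% by the first table and 52.2% by the second, and Cox7b-203, of cytochrome oxidase, 1.56% and 42.9%. The chemokine Ccl6 had Ccl6-202 at 8.67% and 36.9%, and Clptm1-208 stood at 16.9% and 52.8%. In the other direction Igf2bp2-207 held 41.4% and 3.39%, Flii-203 32.9% and 3.31%, Prrc2a-204 30.9% and 0.309%, Capns1-208 54.2% and 17.1% and Cerk-202 42.6% and 10.9%. For these the share cannot be placed from the tables alone.

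**Figure D5:**
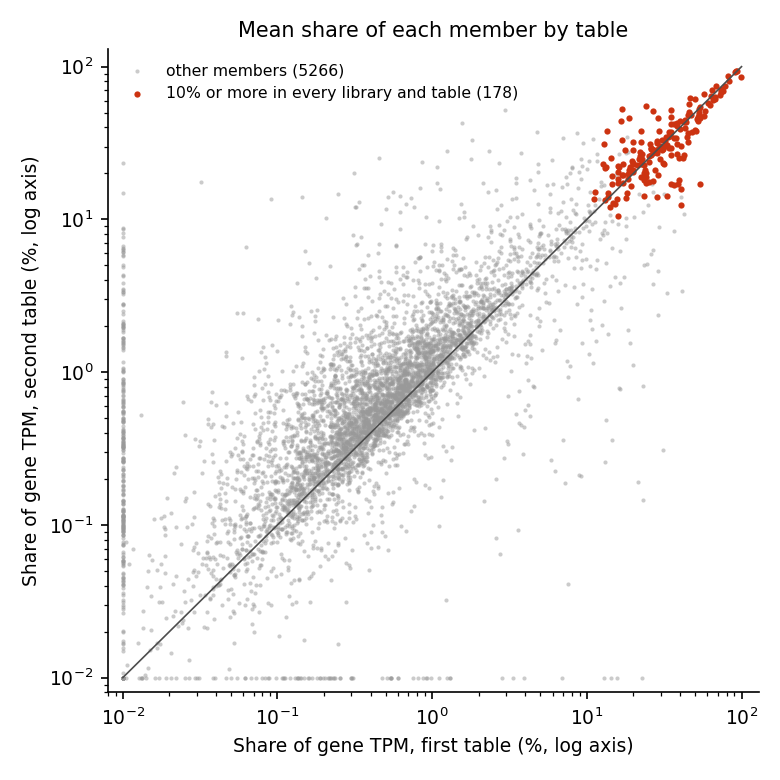
Mean share of gene TPM of each of the 5444 members over 3 libraries, first table against second, both axes logarithmic in percent, with values under 0.01% drawn at 0.01% and the line of equal shares. The 178 members at 10% or more in every library and table (red) lie in the upper right corner, some of them far from the line, such as Clptm1-208 at 16.9% and 52.8%, and the other 5266 scatter widely.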

How the data were processed

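The members, gene lists and tests were chosen with earlier results of these data known. The authors deposited, per library, a transcript table with an expected count, a TPM value and a posterior SD of the count, per the file headers in the layout of RSEM (called the first table, and used for results unless stated). The second table, also deposited by the authors, gives per transcript an estimated count and its TPM, laid out as kallisto does. A note deposited per library names mm10 and GENCODE M21 and says that transcriptome alignments gave the first table, and reads with an index the second. Which quantifier was used, its version and its use of strand: not given in the sources used here. Gene-level tables were used for depth only. Rows without an annotated gene (0.774%, 0.207% and 0.167% of expected counts in replicates 1, 2 and 3) were dropped. RNA of the 7SL and 7SK genes together took 63.2% to 67.5% of TPM in the first table and 16.3% to 29.1% in the second. This lowers all other TPM values but not the share of a transcript in its gene.

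A share is a transcript's TPM over the sum of its gene, unless called a share of counts or reads. The test of unequal share used a transcript's expected count over the sum of its gene instead. Structure came from the GENCODE M21 annotation, with introns of at least 30 bases, and sequences from its transcripts. No genome sequence was used. The variance of a share in that test is the binomial variance given the count of the gene, plus the posterior SD of the transcript's count as a part of the gene's count, squared. On data simulated without change it called 0% of 25749 transcripts. These data had the variance that the test assumes and no further spread between libraries, so they cannot show its false calls on real libraries. It called 27.5%, 64% and 89.5% of 200 transcripts changed 1.5-fold, 2-fold and 3-fold in 1 library. Those 200 had mean counts of at least 50 and count shares under 30%, and transcripts of lower count were not tried. Limits from counts cover counting error only. Tools were Python 3.11.15, pandas 2.3.3, numpy 2.4.6, scipy 1.17.1 and matplotlib 3.10.9.

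Members named are the 20 of highest share among those at 10%, the 12 at 10% in the most abundant genes, per gene list up to 4 of highest and 1 of lowest share, the 8 with the largest difference between tables, the 8 most unequal, the 10 of highest TPM and 4 on each side of the gene minimum. Sugt1-205, Pirb-202, Pirb-203, Taf10-201, Tmed7-202 and Rsrp1-204 were named after their values were seen, and not all members that met the rules are reported here. Alternatives were the other table, shares of counts, gene minimums of 1 and 20 TPM, coding genes alone, leaving out genes with a small RNA inside a member, other share thresholds, counting variance alone, a minimum count of 50 and leaving out each replicate.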

Additional observations from a re-analysis of the deposited data

How the results depend on the processing

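Of 58 alternative values, 43 kept their direction and stayed within 1 SD over replicates or, for counts, within 1.5 times, 5 moved further, 7 were lower and 3 higher past the limit set for counts, and 0 reversed. The median share of 1.19% became 1.93% with the second table and 0.633% as a share of counts. It was 1.68% at a gene minimum of 1 TPM and 0.754% at 20 TPM, within its wide SD, and ran from 0.956% to 1.41% with each replicate left out. The pooled share of 4.93% became 5.66% with the second table, 2.46% as a share of counts and 4.31% in genes of at least 20 TPM, and ran from 4.66% to 5.16% with each replicate left out. The 178 members at 10% became 90 as shares of counts, 381 at a gene minimum of 1 TPM, 41 at 20 TPM and 98 at a share of 20%, and ran from 187 to 231 with each replicate left out. The 21 members at 50% became 40 at 1 TPM and 2 at 20 TPM. The 1139 members of unequal share (46.5% of those tested, against 16.5% of all transcripts) became 1876 with counting variance alone (76.6%, against 67.5%). At a minimum count of 50 they became 532 of 964 tested (55.2%, against 16.9%). The count ran from 255 without replicate 3 through 468 without replicate 2 to 1225 without replicate 1. The cause of each change was not tested, apart from the fewer transcripts tested at a higher minimum. The difference from decay targets kept its sign in every alternative, from -3.39 to -2.47 points. No paired analysis was possible because there is 1 group and no other group of samples to pair with it. The 2 transcript classes were compared within each library. Depth limits low members, since the median member had 4.16 to 12.3 counts.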
